A study of Mus musculus with 6 samples.

Results

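Genes of the plasminogen activator system and of coagulation at the vessel wall, 9 in all, were followed in RNA sequencing of whole mouse thoracic aorta: Plat, Plau, Plaur, Serpine2, Serpinf1, F3, Thbd, Procr and Tfpi. They were chosen by name, and each matched 1 row of the 52636 genes in the count table, so all 9 are accounted for. The samples were 6 aortas from mice 12 weeks of age. There were 4 untreated C57BL/6J mice (WT-1 to WT-4) and 2 mice (KO-1 and KO-2) with loxP-flanked Tgfbr1 and Tgfbr2 alleles, the mT/mG reporter and Myh11-CreERT2, given a daily dose of 2 mg of tamoxifen on 5 days beginning at 11 weeks. Cre recombinase is driven in these mice by the promoter of the smooth muscle cell (SMC) gene Myh11, from a transgene on the Y chromosome, so other cell types of the aorta keep both TGF-β receptor genes. WT mice carried none of these alleles and had no tamoxifen, so the deletion, the transgenes and the drug cannot be told apart. The columns of the table carry codes in place of titles, and the code numbered 1 to 4 was taken as WT and the code numbered 1 to 2 as KO.

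Plasminogen activators are serine proteases that cut plasminogen to plasmin, which dissolves fibrin and degrades matrix proteins. Tissue-type activator (Plat) acts mainly on fibrin, and urokinase (Plau) acts at the cell surface when bound to its receptor (Plaur). Both are held in check by serpins, inhibitors that trap a protease in a covalent complex, among them protease nexin-1 (Serpine2), which also inhibits thrombin. Coagulation starts when blood meets tissue factor (F3) on cells of the vessel wall. It is restrained by tissue factor pathway inhibitor (Tfpi) and by thrombomodulin (Thbd), which turns thrombin into an activator of protein C with the help of the endothelial protein C receptor (Procr).

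Serpine2 and Plaur were each lower in the KO libraries by about the same factor, to 0.499 and 0.507 of WT, and Thbd was 1.6-fold higher. These 3 of the 9 genes passed the DESeq2 adjusted p-value of 0.05, 2 lower and 1 higher. Among all 17070 tested genes 10.4% passed, 4.69% lower and 5.71% higher. Serpine2 alone also passed the 2-fold threshold that the study used, which 5.64% of tested genes did. It lay at that threshold, and with TMM or total-count scaling, or without WT-3, none of the 9 genes passed it. The other 6 genes did not pass, and for 3 of them, F3, Procr and Plau, both KO libraries lay above every WT library. With Thbd this made 4 genes above and 2 below the WT range, against 17.9% and 16.4% of tested genes, or 34.3% on either side. The quasi-likelihood test of edgeR passed Serpine2 and Plaur, and 6.18% of the 16114 genes it tested. The median log2 fold change (KO minus WT) was 0.21 over the 9 genes and 0.01 over all tested genes.

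**Figure D1:**
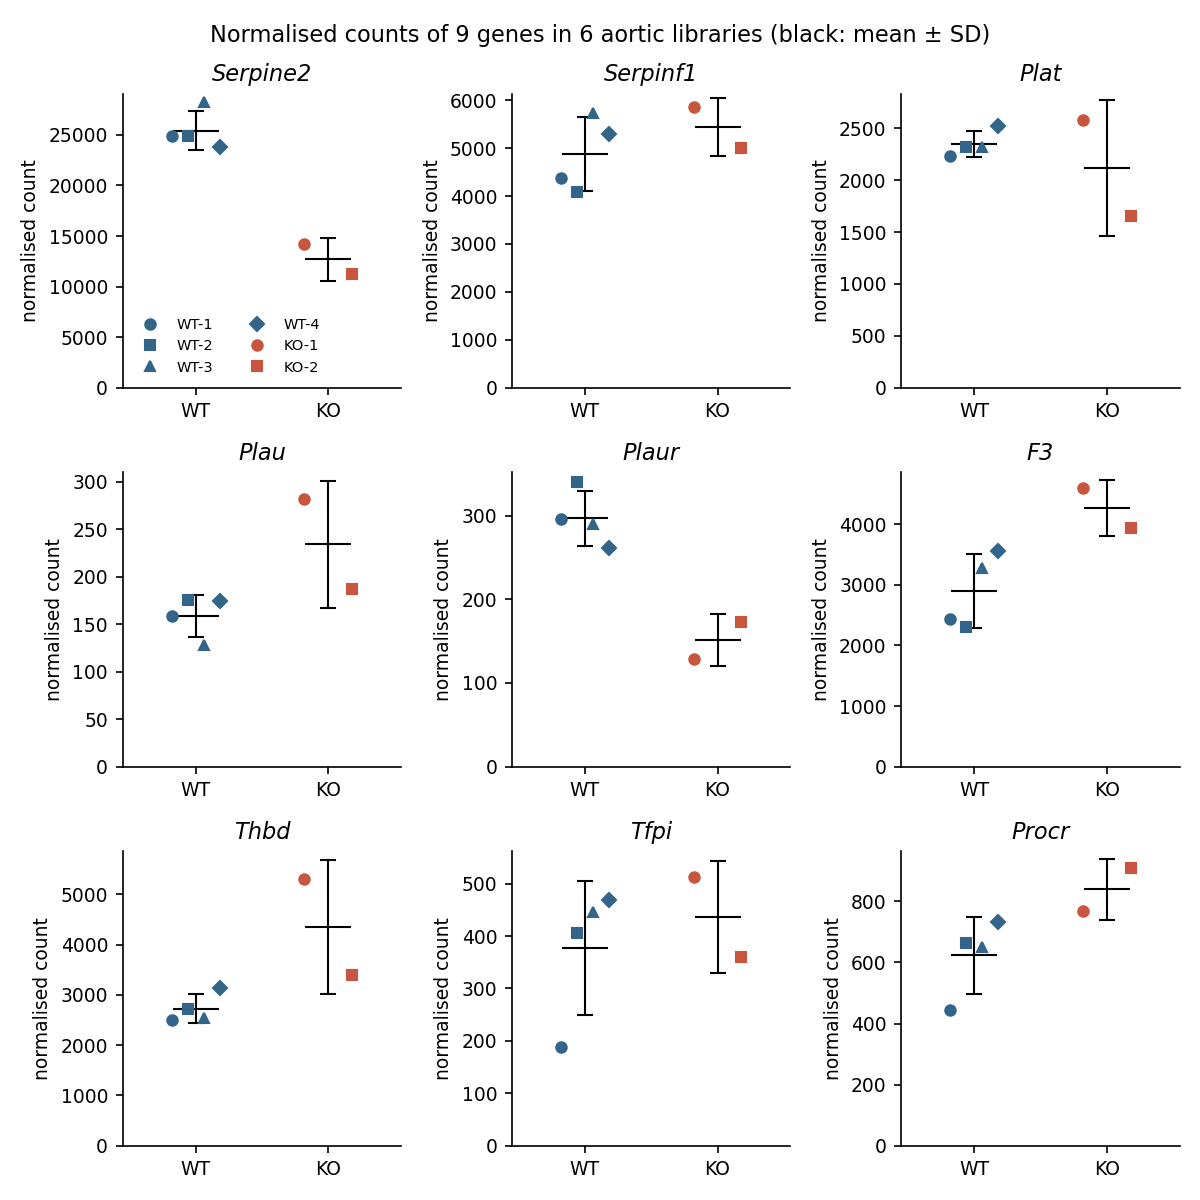
Normalised counts (counts divided by DESeq2 size factors) of the 9 genes on the y axis, for 4 WT and 2 KO libraries on the x axis. Each symbol is a library, and the black line and bar are the mean and SD. Serpine2 and Plaur lie below every WT library in KO-1 and KO-2, and Thbd, F3, Procr and Plau above.

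Total counts ran from 19650983 to 28860598 per library. Whole-gene counts of Tgfbr1 (4510 ± 725.6 in WT, n = 4, and 5174 ± 857.6 in KO, n = 2, normalised count ± SD) and Tgfbr2 (6240 ± 882 and 5861 ± 108) count exons that Cre leaves in place and RNA from cells lacking Cre, and they check nothing about the KO label. Defining SMC genes such as Myh11 and Acta2 were abundant in all libraries. The KO libraries differed from each other. Summed brown adipocyte markers (5 genes) were 431.2 to 615.1 normalised counts in WT, 695.8 in KO-1 and 11050 in KO-2. Summed cardiac markers (7 genes) were 803.7 to 1899 in WT, 25960 in KO-1 and 2817 in KO-2. Mitochondrial transcripts took 11.71% of the counts in KO-2, 3.378% in KO-1 and 2.617% to 4.441% in WT.

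The 2 genes that fell and F3 are shown with the 250 bases before their transcription start, F3 as an example, picked for its match to the AP-1 letters, which the windows of Plaur and Procr also hold. Sequences are RefSeq's for GRCm38.p6, read 5′ to 3′ along the gene's strand in the tables used here. Entries for 6 of the 9 genes matched, and Plat, Plau and Thbd had no entry. Capitals mark matches, on either strand, to the AP-1 letters TGACTCA, the GC box letters GGGCGG, the SMAD-binding CAGA letters CAGACA and the E-box letters CACGTG. Some neighbouring GC boxes share bases or abut, so that a run of capitals can hold more than 1.

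Serpine2, chr1:79858666-79858915, minus strand: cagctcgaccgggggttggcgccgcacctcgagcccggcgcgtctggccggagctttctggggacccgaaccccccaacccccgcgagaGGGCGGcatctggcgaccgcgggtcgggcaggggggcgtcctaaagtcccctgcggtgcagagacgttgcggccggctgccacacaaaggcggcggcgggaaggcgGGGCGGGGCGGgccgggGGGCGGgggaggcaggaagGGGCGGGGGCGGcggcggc
Plaur, chr7:24462233-24462482, plus strand: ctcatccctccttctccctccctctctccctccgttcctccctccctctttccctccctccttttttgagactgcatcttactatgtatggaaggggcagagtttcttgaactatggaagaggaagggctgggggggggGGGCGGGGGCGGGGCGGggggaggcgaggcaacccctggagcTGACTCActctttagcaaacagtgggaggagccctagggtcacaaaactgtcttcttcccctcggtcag
F3, chr3:121723287-121723536, plus strand: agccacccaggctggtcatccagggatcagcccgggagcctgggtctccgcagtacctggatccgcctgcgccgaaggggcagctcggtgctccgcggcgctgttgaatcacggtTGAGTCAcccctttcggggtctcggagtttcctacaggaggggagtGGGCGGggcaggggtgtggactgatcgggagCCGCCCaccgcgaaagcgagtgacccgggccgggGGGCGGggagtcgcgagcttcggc

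TGACTCA or its reverse was found before Plaur (first base at -69 from the start), F3 (-135) and Procr (-154), and in 4.46% of all 32851 promoter windows of this length. The Serpine2 window held 6 GC boxes, which 32.7% of windows have at least once, and no CAGACA, which 17.1% of windows have. CAGACA was found before Serpinf1, and CACGTG, present in 6.02% of windows, before none of the 6 genes. The RefSeq starts used for Serpine2, Serpinf1, Procr and Tfpi lie inside the GENCODE genes, each of which has a start further upstream. Tfpi also had another window, still further inside the gene. These matches describe the letters only.

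Levels of different genes were compared per kilobase of exon. The length was that of all annotated exons of a gene, not of the transcripts expressed, so the order depends on it. In WT, Serpine2 was highest, at 3070 ± 232 normalised counts per kb (SD, n = 4), and lay above 98.4% of tested genes. Serpinf1 (2065 ± 328.6), F3 (1146 ± 243.5) and Thbd (732.2 ± 77.54) followed, each with a WT range below that of the gene before it. Plat (376.1 ± 19.55) and Procr (306.9 ± 61.91) came next, with overlapping ranges. Plaur (113.3 ± 12.54) stood apart from both neighbours, and Tfpi (69.02 ± 23.46) and Plau (67.12 ± 9.348) overlapped at the lower end. On the mean of the KO libraries Serpine2 had 1532 normalised counts per kb and came after Serpinf1 (2306) and F3 (1688), and Plaur stood last at 57.76. In KO-2 alone Plaur (66.23) and Tfpi (65.92) were nearly equal.

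**Figure D2:**
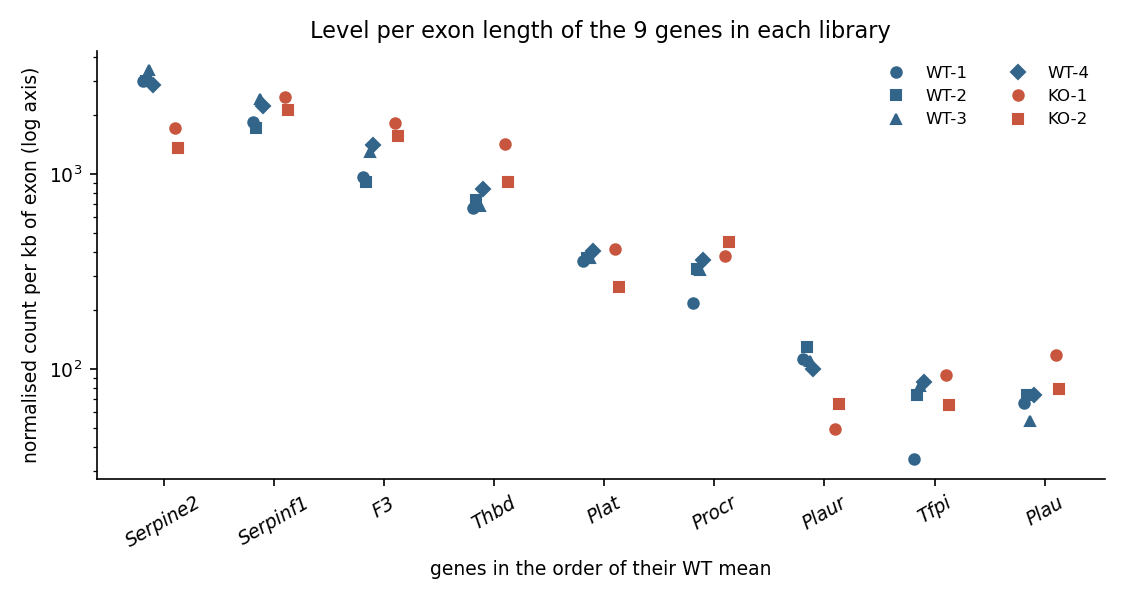
Normalised count per kb of exon (y axis, log scale) of the 9 genes in each library, ordered by WT mean from left to right on the x axis. Blue symbols are the 4 WT and red symbols the 2 KO libraries. Serpine2, first in WT at 3070, drops to 1532 in KO, and Plaur drops from 113.3 to 57.76.

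Among the activators, Plat (ENSMUSG00000031538.6, chromosome 8, 22757727 to 22782844) had normalised counts of 2232, 2320, 2317 and 2520 in WT-1 to WT-4, 2578 in KO-1 and 1654 in KO-2. KO-1 lay above every WT library and KO-2 below every one. KO minus WT was -0.15 on the log2 scale (95% interval -0.55 to 0.26, DESeq2 adjusted p = 0.748). The sign rested on KO-2, since without it the log2 difference was 0.15, and without KO-1 it was -0.50 (DESeq2 adjusted p = 0.0236).

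Plau (ENSMUSG00000021822.3, chromosome 14, 20836660 to 20843385) had the lowest WT mean of the 9 genes per length, with a range that overlapped that of Tfpi, and at least 128 counts in each library. It had normalised counts of 158.2, 175.1, 127.8 and 174.4 in WT, 281.5 in KO-1 and 186.8 in KO-2. Both KO libraries were above WT, KO-2 by a small margin. The difference was 0.56 on the log2 scale (95% interval -0.01 to 1.14, DESeq2 adjusted p = 0.24).

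The urokinase receptor Plaur (ENSMUSG00000046223.10, chromosome 7, 24462484 to 24475968), which anchors urokinase at the cell surface, fell. Its normalised counts were 295.5, 340.4, 289.6 and 261 in WT, 129 in KO-1 and 173.3 in KO-2. Both KO libraries were well below the lowest WT library. Its log2 fold change was -0.98 ± 0.26 (SE), at an adjusted p of 0.00321 in DESeq2 and 0.0305 in edgeR. Without KO-1 the adjusted p of DESeq2 was 0.0561. Plaur is also expressed by macrophages, and 7 of 8 macrophage markers were higher in the KO libraries (summed normalised counts 8955 to 10830 in WT, 15520 in KO-1 and 17790 in KO-2).

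Among the serpins, Serpine2 (ENSMUSG00000026249.10, chromosome 1, 79794197 to 79861180) showed the smallest adjusted p-value of the 9 genes. It had normalised counts of 24870, 24870, 28220 and 23790 in WT-1 to WT-4, 14180 in KO-1 and 11210 in KO-2. The WT libraries were close together and the KO libraries far below them. Its log2 fold change was -1.002 ± 0.17 (SE, 95% interval -1.34 to -0.67), at an adjusted p of 3.53e-07 in DESeq2 and 0.0113 in edgeR. In whole aorta, fewer cells of a type and less RNA per cell cannot be told apart. Per 1000 counts of 8 SMC marker genes, Serpine2 took 26.8 to 27.3 counts in WT, 16.8 in KO-1 and 11.2 in KO-2. These markers did not move together. Myh11 and Actg2 lay above every WT library in both KO libraries, and Tagln, Cnn1 and Smtn lay below.

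Serpinf1 (ENSMUSG00000000753.15, chromosome 11, 75409769 to 75422701) encodes pigment epithelium-derived factor, a secreted serpin that does not inhibit proteases. It had normalised counts of 4377, 4079, 5739 and 5293 in WT, 5866 in KO-1 and 5013 in KO-2. The groups overlapped. On the log2 scale KO minus WT was 0.16 (95% interval -0.22 to 0.54, DESeq2 adjusted p = 0.709).

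On the side of coagulation, F3 (ENSMUSG00000028128.13, chromosome 3, 121723537 to 121735048) had normalised counts of 2435, 2310, 3285 and 3550 in WT, 4594 in KO-1 and 3937 in KO-2. WT-1 and WT-2 were low, and both KO libraries were above WT-4. The log2 difference was 0.56 ± 0.22 (SE). Its adjusted p in DESeq2 was 0.0861 and fell to 0.0294 without WT-4, the only 1 of 14 alternative fits under 0.05. It was 0.251 in DESeq2 without WT-2 and 0.143 in edgeR.

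The anticoagulant receptor Thbd (ENSMUSG00000074743.4, chromosome 2, 148404466 to 148408188) rose. Its normalised counts were 2497, 2728, 2546 and 3132 in WT, 5298 in KO-1 and 3404 in KO-2. KO-1 was far above WT and KO-2 was just above WT-4. Its log2 fold change was 0.68 ± 0.21 (SE), at an adjusted p of 0.0208 in DESeq2 and 0.0826 in edgeR. That of DESeq2 was 0.297 without KO-1, and 0.0831, 0.08 and 0.0723 without WT-1, WT-2 and WT-3.

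Procr (ENSMUSG00000027611.12, chromosome 2, 155751117 to 155755471), which presents protein C to the thrombin-thrombomodulin complex, had normalised counts of 442.7, 664.5, 652.1 and 734 in WT, 769.4 in KO-1 and 909.6 in KO-2. Both KO libraries were above WT, KO-1 narrowly. The log2 difference was 0.43 (95% interval -0.04 to 0.90, DESeq2 adjusted p = 0.285).

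Tfpi (ENSMUSG00000027082.15, chromosome 2, 84432855 to 84476775), the inhibitor of the tissue factor complex, had normalised counts of 188.9, 405, 445.4 and 468.8 in WT, 512.2 in KO-1 and 360.1 in KO-2. WT-1 was the lowest library and KO-2 fell within the WT range. The log2 difference of 0.21 (95% interval -0.46 to 0.88, DESeq2 adjusted p = 0.791) was -0.01 without WT-1 and -0.065 without KO-1, so it had no settled sign. No other annotated gene overlapped any of the 9 genes.

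**Figure D3:**
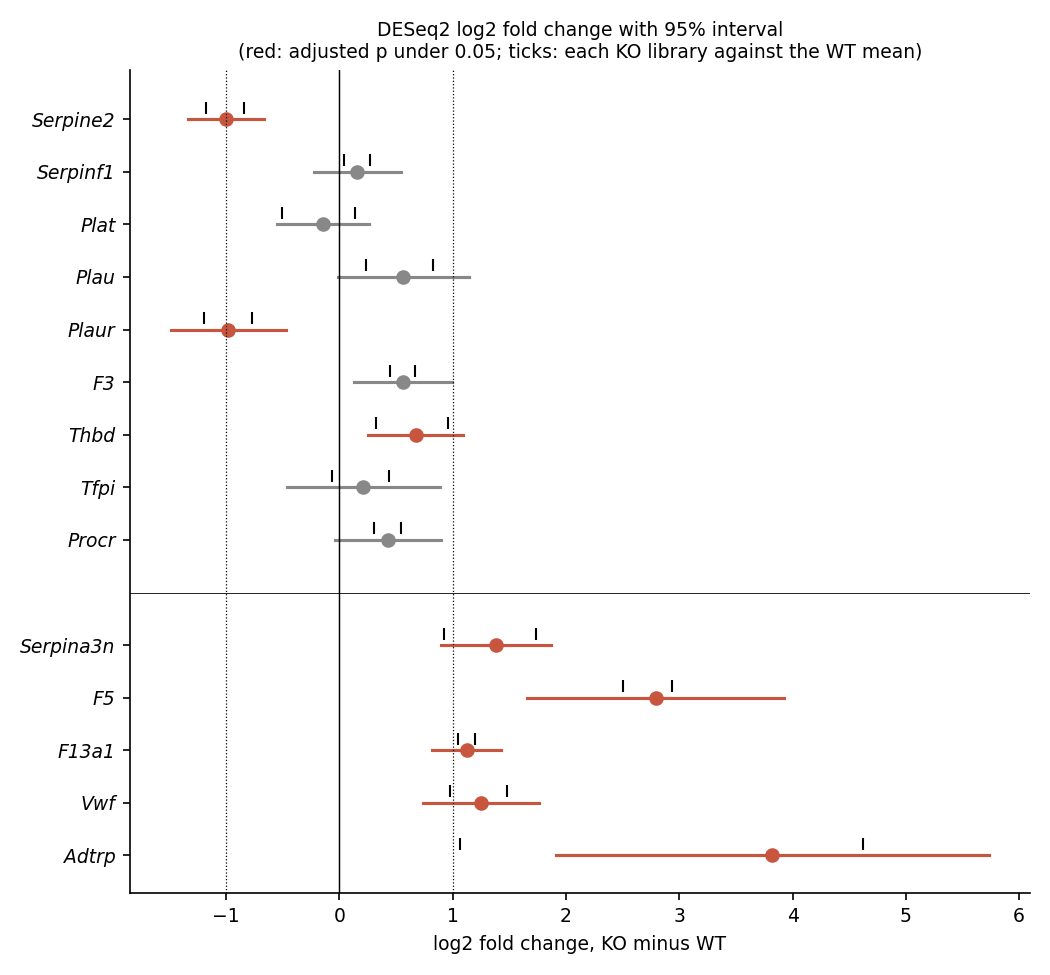
DESeq2 log2 fold change, KO minus WT (x axis), of the 9 genes above the horizontal line and, below it, of 5 further plasminogen and coagulation genes that passed the adjusted p-value. Bars are 95% intervals, red marks an adjusted p-value under 0.05, black ticks give each KO library against the WT mean and dotted lines mark 2-fold. Serpine2 and Plaur lie near the left dotted line, and the 2 ticks of Adtrp lie far apart.

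Endothelial cells are a known source of Thbd, Procr, Tfpi and von Willebrand factor (Vwf), and 8 of their marker genes were compared. Of these endothelial markers 3 were higher in the KO libraries by the DESeq2 adjusted p-value (Kdr, Cdh5 and Tie1) and 0 lower. Egfl7 lay below every WT library in both KO libraries (log2 difference -0.48, DESeq2 adjusted p = 0.131), and Esam differed by -0.08 (0.857). The summed normalised count of the 8 markers was 11100 to 18930 in WT, 22170 in KO-1 and 24310 in KO-2. WT-1 had the lowest sum, and it was also the lowest library for Procr, Tfpi, Vwf and, by a small margin, Thbd (2497, against 2546 in WT-3). Per 1000 counts of these 8 markers, a scaling chosen after seeing the data, Thbd took 135 to 225 counts in WT, 239 in KO-1 and 140 in KO-2, and the groups overlapped. Procr likewise overlapped, with 34.5 to 46.4 in WT, 34.7 in KO-1 and 37.4 in KO-2. Vwf did not, with 238 to 286 in WT, 520 in KO-1 and 334 in KO-2. Pecam1 supplied most of this sum and was 1.4-fold higher in the KO libraries, against 2.763-fold for Cdh5 and 2.377-fold for Vwf. Relative to the summed macrophage and mesothelial markers, Vwf overlapped WT. Whether Vwf rose beyond the endothelial content was not tested.

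Thbd is also a known product of mesothelial cells, and all 8 mesothelial markers were higher in both KO libraries than in every WT library (summed 697.8 to 908.7 in WT, 1515 in KO-1 and 3011 in KO-2). Of 8 fibroblast markers 4 were higher (summed 113300 to 125800 in WT, 144400 in KO-1 and 168200 in KO-2). The 8 SMC markers had 0 past the DESeq2 adjusted p-value and 4 with an unadjusted p-value under 0.05, and 0 past that of edgeR. Their sum was 889100 to 1047000 in WT, 843600 in KO-1 and 1004000 in KO-2. Relative to the SMC sum, Plaur and Serpine2 were both below the WT range. The endothelial, fibroblast, macrophage and mesothelial sums were above every WT library in both KO libraries. A gene below WT in both KO libraries must then also be below WT relative to those sums, so these comparisons add nothing for Plaur and Serpine2. Plat, whose normalised counts lay on both sides of WT, was below WT relative to the same sums. The part of cell composition in any of these differences was not tested.

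**Figure D4:**
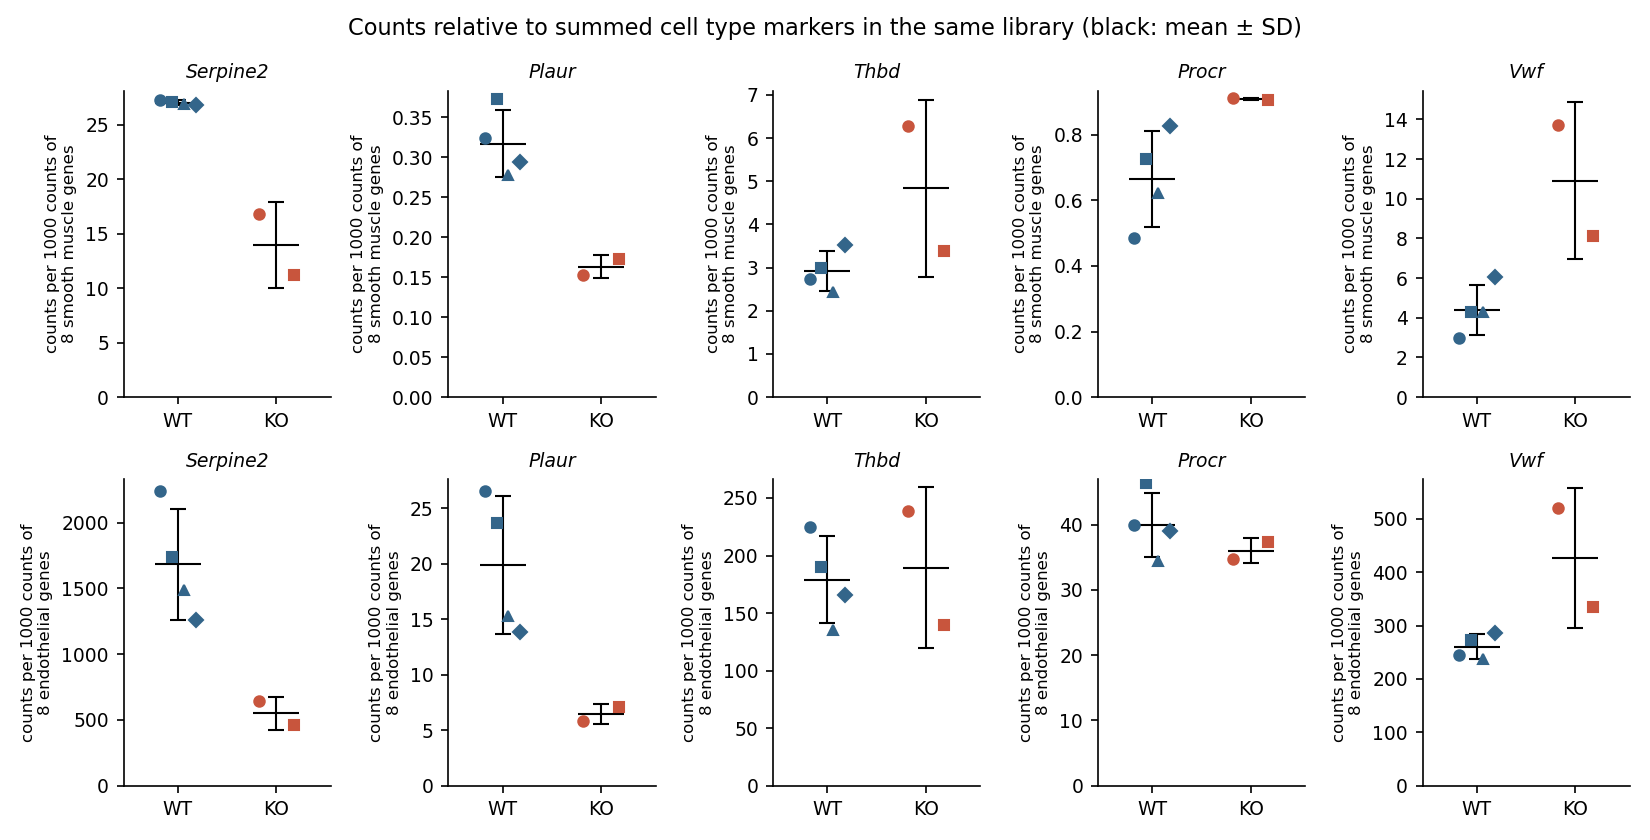
Counts of Serpine2, Plaur, Thbd, Procr and Vwf per 1000 summed counts of 8 SMC markers (upper row) and of 8 endothelial markers (lower row) on the y axes, for WT and KO libraries on the x axes, with mean and SD in black. Serpine2 and Plaur lie below WT in both rows, and Thbd overlaps WT in both. In the lower row this was certain for Serpine2 and Plaur, since their counts were lower and the endothelial sums higher in both KO libraries.

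Ratios of 2 genes within a library do not depend on how libraries are scaled, and 7 were compared, as counts per exon base. The ratio of Plat to Serpine2 was 0.119, 0.124, 0.109 and 0.141 in WT-1 to WT-4, 0.241 in KO-1 and 0.196 in KO-2. Activator transcript was thus higher relative to Serpine2 in both KO libraries, 1.77-fold on the mean of log2 ratios. Plau to Serpine2 was 2.93-fold higher (0.0159 to 0.0257 in WT, 0.0696 in KO-1 and 0.0585 in KO-2). Plau to Plaur changed sides, from 0.593, 0.57, 0.489 and 0.739 in WT to 2.41 in KO-1 and 1.19 in KO-2. Per base of annotated exon, receptor transcript exceeded ligand transcript in every WT library and not in the KO libraries. Which of the 2 is higher depends on the exon lengths used, and in KO-2 the raw counts were close (152 for Plau, 141 for Plaur). Plat to Plau was lower, at 5.01 to 6.85 in WT, 3.47 in KO-1 and 3.35 in KO-2. For each of these 4 ratios the groups did not overlap, and the two-sided exact permutation test gave p = 0.0667, the smallest that 15 splits of 6 libraries allow, or 0.117 adjusted over the 7 ratios. This design cannot reach 0.05. For Plau to Serpine2 and Plau to Plaur the separation was certain beforehand. Plau lay above, and Serpine2 and Plaur below, every WT library in both KO libraries, so those ratios add nothing to the single-gene counts.

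Ratios among the coagulation genes overlapped between groups. F3 to Tfpi was 12.3 to 27.8 in WT, 19.4 in KO-1 and 23.6 in KO-2 (exact permutation p = 0.4, two-sided). Thbd to Procr was 2.13 to 3.07 in WT, 3.75 in KO-1 and 2.04 in KO-2 (exact permutation p = 0.733). F3 to Thbd, initiator to restraint, was 1.25 to 1.9 in WT, 1.28 in KO-1 and 1.7 in KO-2 (exact permutation p = 0.733).

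**Figure D5:**
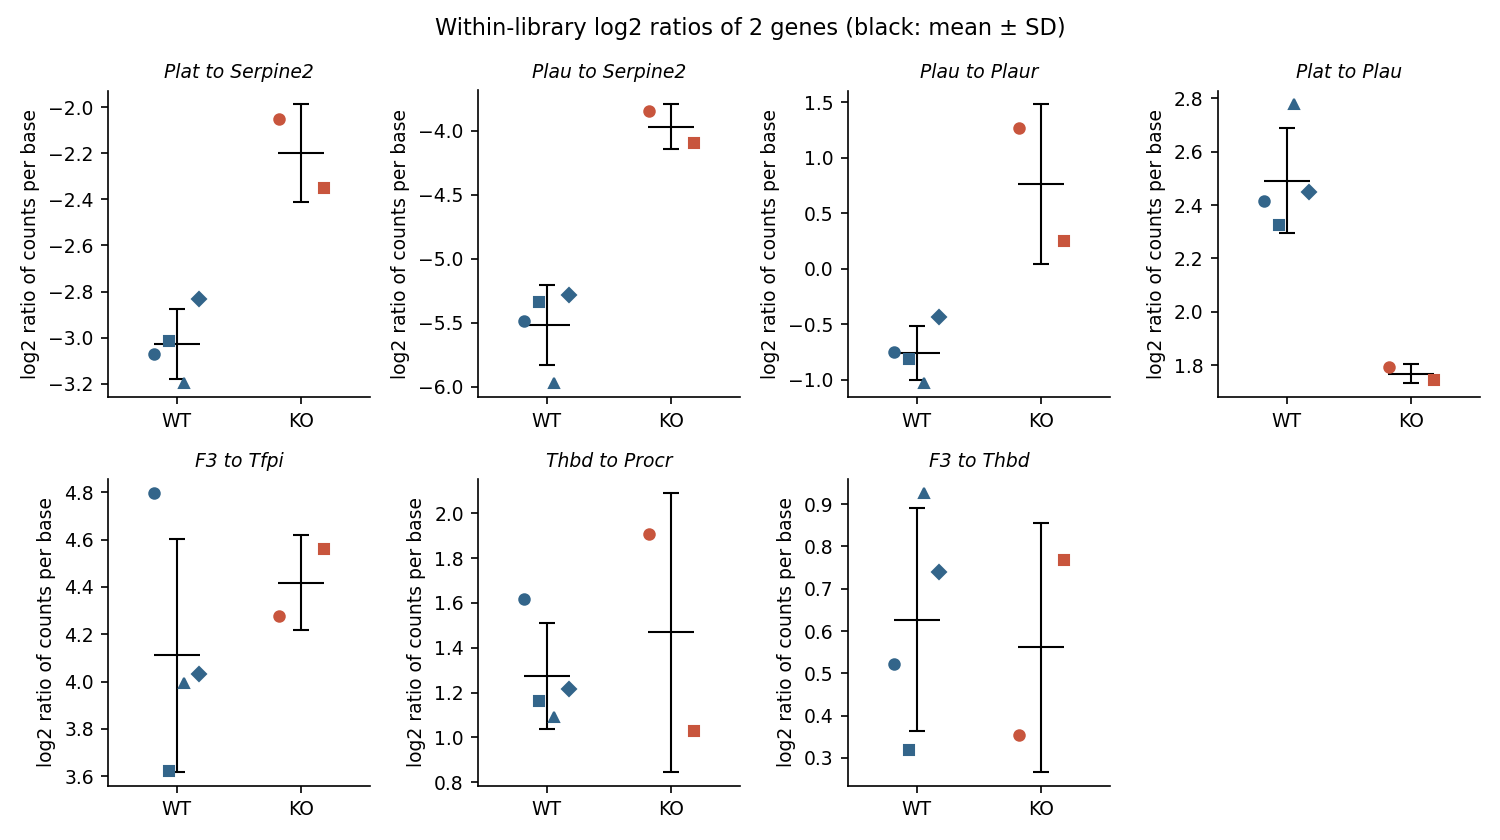
Log2 ratios of counts per exon base (y axes) for 7 gene pairs in WT and KO libraries (x axes), with mean and SD in black. The 4 pairs of the upper row do not overlap between groups, and the 3 coagulation pairs of the lower row do. For Plau to Serpine2 and Plau to Plaur the separation was certain from the counts of each gene.

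Of 53 other plasminogen and coagulation genes, 10 had no counts and 31 were tested. DESeq2 called 6 of the tested genes higher by adjusted p, all beyond 2-fold, and 0 lower, and edgeR called 4. An unadjusted DESeq2 p under 0.05 was found for 15. Among all tested genes 3.54% were higher and 2.1% lower by both thresholds. The median log2 fold change was 0.16 over the 31 genes. Plg, the gene of plasminogen itself, had 0 counts in all libraries, and F2, F7 and F9 (prothrombin and coagulation factors) had at most 5 counts in any.

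In the plasminogen list of 19 genes, 1 was higher and 0 lower by the adjusted p of DESeq2, 1 passed in edgeR, and 5 had an unadjusted DESeq2 p under 0.05. Serpina3n, a serpin of the acute-phase response, rose from 432.4 to 517.3 in WT to 921.2 in KO-1 and 1618 in KO-2 (log2 fold change 1.38, DESeq2 adjusted p = 2.11e-06). It belongs to a family of near-identical copies that can share reads, and its value is uncertain for that reason. The plasminogen receptor genes Anxa2 (log2 fold change -0.16, DESeq2 adjusted p = 0.59), S100a10 (-0.12, 0.798) and Plgrkt (-0.42, 0.195) did not pass. Lrp1 (-0.10, 0.85), a clearance receptor for activator-serpin complexes, did not pass either. Of the 12 tested genes 3 lay below every WT library in both KO libraries and 3 above, against 16.4% and 17.9% of all tested genes. Those below were Plgrkt, Serpini1 (-0.55, 0.0817) and Mrc2 (-0.43, 0.131).

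In the procoagulant list of 18 genes 9 were tested. By the adjusted p of DESeq2 4 were higher and 0 lower, against 5.71% higher and 4.69% lower among all tested genes, and 3 passed in edgeR. F13a1, the fibrin cross-linking transglutaminase subunit that macrophages also make, was 1607, 1577, 1522 and 1655 in WT, 3279 in KO-1 and 3652 in KO-2 (log2 fold change 1.12, DESeq2 adjusted p = 9.1e-11). Vwf, the carrier of factor VIII that binds platelets to the injured wall, was 2722, 3919, 4512 and 5386 in WT, 11530 in KO-1 and 8131 in KO-2 (1.25, 8.39e-05). F5, the cofactor of factor Xa, was 6.99 to 11.67 in WT, 59.18 in KO-1 and 79.9 in KO-2 (2.79, 6.51e-05). F10, named after its values were seen, had 0 counts in each WT library, 9 counts in KO-1 and 19 in KO-2. Of 5 hepatocyte markers, all with 0 counts in WT, 1 passed as higher: Alb, with 55 counts in KO-1 and 227 in KO-2. The others had few or none. Ttr had 0 counts in all libraries, Apoa1 had 0 in KO-1 and 7 in KO-2, Apoa2 0 and 9, and Serpina1c 5 and 6.

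In the anticoagulant list 1 of 12 genes, Adtrp, which regulates Tfpi, passed as higher, and its value rested on KO-2. It was 0, 9.878, 9.986 and 5.221 in WT, 13.66 in KO-1 and 165.9 in KO-2 (log2 fold change 3.82, DESeq2 adjusted p = 0.00214, edgeR adjusted p = 0.0767). Without KO-2 the log2 fold change was 1.13 and DESeq2 gave no adjusted p, and without WT-2, WT-3 or WT-4 the adjusted p of DESeq2 was 0.196, 0.148 and 0.218. The protein C cofactor Pros1 differed by 0.19 on the log2 scale (DESeq2 adjusted p = 0.601). Of the 4 protease-activated receptor genes 0 passed in DESeq2 or edgeR, and 2 had an unadjusted DESeq2 p-value under 0.05. They lay on opposite sides of WT. F2rl3, protease-activated receptor 4, was 9.986 to 37.35 in WT, 5.311 in KO-1 and 4.917 in KO-2 (log2 difference -2.11, DESeq2 adjusted p = 0.12). The thrombin receptor F2r was 1860 to 2732 in WT, 3099 in KO-1 and 3122 in KO-2 (0.39, DESeq2 adjusted p = 0.206).

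The genes whose pattern over the 6 libraries was most like that of a member were found by the root mean square difference of log2 normalised counts, each centred on its WT mean, among 11446 genes. For Serpine2 they were Ndp (0.069) and Fbxo31 (0.07), for Plaur Slc16a3 (0.0757) and Klhl38 (0.0917), and for Thbd Tent5c (0.0464) and Snx18 (0.0653). The closest genes were Nrf1 (0.0571) for Plau, Zfpm2 (0.0638) for F3, Rpf1 (0.0583) for Procr, Aebp2 (0.0707) for Tfpi, Zscan20 (0.0293) for Plat and Dnttip2 (0.0358) for Serpinf1.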

How the data were processed

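Reads were trimmed (Trim Galore), aligned to GRCm38 (HISAT2) and quantified against GENCODE M15 (StringTie) by the authors. They deposited estimated counts, already whole numbers, without scaling for depth. How coverage was turned into counts and whether strand was used are not given in the sources used here. Positions and exon lengths came from GENCODE M21, and 147 of 52636 gene identifiers did not match it. DESeq2 1.42.0 in R 4.3.3 tested 2 KO against 4 WT libraries with the Wald test and no covariates, at thresholds of 0.05 on the Benjamini-Hochberg adjusted p-value and of 2 on the fold change. p-values measure the spread between these mice only. edgeR 4.0.16 (quasi-likelihood, filterByExpr, TMM) and other settings served as alternatives. The script was checked on simulated counts. Ratios used counts plus 0.5 per exon base. Intervals of fold changes are 95% Wald intervals. The floor of 3 counts covers counting error only.

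The 9 genes, 4 pathway lists (plasminogen system, procoagulant, anticoagulant, thrombin receptors) and 13 marker lists were chosen with earlier results of these data known. Named were the 9 genes, Tgfbr1, Tgfbr2, pathway genes past the adjusted p-value whose normalised counts averaged 10 or more, and for each member the 2 genes most alike among those averaging 100 or more. A further gene of the pathway is not reported here. Other genes named fall outside this rule and were named with their values known.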

Additional observations from a re-analysis of the deposited data

How the results depend on the processing

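In the test against a 2-fold change, Serpine2 (-1.002), Plaur (-0.98) and Thbd (0.68) did not pass, which left 0 of the 9 genes, 0 of the other plasminogen and coagulation genes and 114 genes in all. Plaur and Thbd had estimates inside 2-fold and Serpine2 lay at it, so these genes could not pass. That test asks a different question from the main fit. The cause of the following changes was not tested. None of the 9 genes (0) passed both thresholds with TMM factors, with total counts or in edgeR without a filter. edgeR passed 633 genes by both thresholds, against 962 in DESeq2, and did not pass Thbd (0.66, or 0.68 without a filter).

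Between WT and KO libraries of the same replicate number, the correlation of deviations was -0.0867 for number 1 and 0.014 for number 2. The deviations of KO-1 and KO-2 from their mean are exact opposites, so this check cannot decide whether the numbers pair the libraries. With the number as a replicate block, under which WT-3 and WT-4 have no partner, 1 of the 9 genes passed (Serpine2), 0 passed both thresholds, and 561 genes did so in all. Plaur was then -1.08 (adjusted p = 0.205 in DESeq2), Thbd 0.70 (0.219), and the log2 ratio of F3 to Thbd 0.14. F5 had an adjusted p of 0.192.

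With 1 library left out at a time, the log2 fold change ran from -1.19 to -0.77 for Plaur, from 0.32 to 0.97 for Thbd, from 0.45 to 0.68 for F3, from -0.50 to 0.15 for Plat and from -0.065 to 0.45 for Tfpi (-0.01 without WT-1). The log2 ratio of Thbd to Procr ran from -0.24 (without KO-1) to 0.64, and that of F3 to Thbd from -0.27 to 0.14 (without KO-1), and was 0.03 without WT-3. Between 0 (without WT-3) and 2 (without WT-4) of the 9 genes passed both thresholds. Of the other plasminogen and coagulation genes 4 to 11 (without KO-1) passed, and of all genes 636 (without KO-2) to 1284. A lone KO library is assumed to vary like the WT libraries.

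Of 245 values compared, 209 kept their direction and their side of the threshold, or their count within 1.5 times. For the 7 ratios only the sign was judged. The test against a 2-fold change, which asks a different question, was counted among the 245. The setting that asked for at least 10 counts in every library removed no ratio, so it repeated their main values and could only be counted as kept. With 2 KO libraries, and low counts for F5, F10 and Adtrp, small differences could not be detected.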

Other observations

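Blood cell genes were also compared, since clotting components are carried by platelets. Of 6 platelet and megakaryocyte markers 3 were higher in the KO libraries by the DESeq2 adjusted p-value. Ppbp, a platelet chemokine, had 8.98 to 20.87 normalised counts in WT, 121.4 in KO-1 and 254.4 in KO-2, and Pf4 had 256.6 to 349.3, 495.5 and 465.9. Gp6, the platelet collagen receptor, had 0 normalised counts in each WT library, 15.18 in KO-1 and 33.19 in KO-2. Of 6 red blood cell markers 4 were higher, with sums of 859.3 to 5997 in WT, 11120 in KO-1 and 61830 in KO-2. Of 5 neutrophil markers 2 were higher, S100a8 and Csf3r. Lymphocyte markers (5 genes) had 0 past the DESeq2 or the edgeR adjusted p-value and 2 with an unadjusted DESeq2 p-value under 0.05. White adipocyte markers (5 genes) summed to 1020 to 2549 in WT, 2968 in KO-1 and 14680 in KO-2.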
